A study of Zea mays with 24 samples.

Results

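Frame-preserving skipped exons of maize leaves are described here, meaning exons of 52 to 200 bases whose length is divisible by 3 and that were listed in exon skipping (ES) events. They made up 5288 of 31439 alternative splicing (AS) events of all types, and 5288 of 16827 ES events. The 5288 events lay in 3392 genes and comprised 4903 distinct exons. Of them, 4502 were listed at the V5 stage, 3146 at the V4 stage and 2360 at both. They were chosen by exon length alone, without regard to how often an exon was used. Just inside the limits there were 149 events of 54 bases and 29 of 198 bases, and just outside 139 events of 51 bases and 34 of 201 bases.

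When the spliceosome joins the exons on either side of an internal exon directly, that exon is skipped and its bases are missing from the mRNA. Where the exon is coding and its length is divisible by 3, the codons downstream keep their frame. The protein then lacks only a short internal stretch, unless the exon itself holds a stop codon in frame. Other lengths shift the frame and usually bring a premature stop codon that exposes the mRNA to nonsense-mediated decay. Serine/arginine-rich (SR) proteins bind exonic RNA and promote or repress the use of exons, and in plants their own transcripts are among those whose splicing is known to respond to temperature.

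The data came from 24 RNA-seq libraries of the inbred line W22, in 8 groups of 3. The daily temperature peak of the growth chambers (maximum daily temperature, MDT) was set to 4 levels, namely 31°C, 33°C, 35°C and 37°C, and the middle of the newest fully expanded leaf was sampled at V5, 27 days after germination (DAG), or at V4, 20 DAG. No group carried a transgene or another genotype, each replicate combined several plants, and the 31°C plants of the same stage were the baseline. The purpose was to learn how rising daily temperature alters splicing. Each MDT was run in its own pair of chambers, which the sample labels do not give, so that effects of chamber and of MDT cannot be told apart. The tissue label could not be checked against marker genes, since the tables hold splicing events and no expression levels. In bulk leaf RNA, fewer cells that use an isoform and less of it per cell cannot be told apart either.

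Exon use was given as ψ, the share of the including isoform among the including and skipping isoforms of an event, in percent. It was computed from reads on the including and on the skipping isoform, each divided by the length on which such reads can fall. Exons that share an end may each be set against the same skipping isoform, so their ψ values are not shares of all transcripts of the gene. A library had a value only where at least 1 read of each isoform was found, so an exon that was always included has no value, and a missing value is not a ψ of 0% or 100%. Summed over all AS events, reads per library numbered 2662780 to 3378578 at V5 and 1767872 to 2818842 at V4. Gene names are given where the study names a splicing regulator, and other genes by their identifiers. Coordinates are those of B73 RefGen_V4, the build of the files, counted from 1. Whether an exon is coding was not looked up, because no annotation of that build was used.

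The exons had a median length of 96 bases, with quartiles of 72 and 129 bases, which corresponds to 18 to 66 residues and a median of 32 if coding. The intron before the exon had a median of 323 bases and the intron after it 290 bases. There were 2691 events on the plus strand, 5229 events on chromosomes 1 to 10 and 59 on unplaced sequence. In 2266 genes there was 1 such event. The same exon appeared with other flanking exons in 719 events, and 552 distinct exons shared 1 end with another frame-preserving exon, so events of a gene are not independent of each other.

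Exons that keep the frame were more frequent than their share of lengths. Of the 11359 distinct skipped exons of 52 to 200 bases, 4903 had a length divisible by 3, which is 43.2% (95% Wilson interval 42.3% to 44.1%, counting error only). There were 100.06 distinct exons per length on average over the 49 lengths divisible by 3. The lengths that leave a remainder of 1 had 62.7 exons on average, and those that leave a remainder of 2 had 66.4, over 50 lengths each. At 46 of the 49 frame-keeping lengths there were more exons than at either neighbouring length. The share was 45.5% (44.0% to 47.1%) among exons with a value in 1 library, 43.4% among those with a value in 2 to 5 libraries, 40.7% in 6 to 11 and 38.1% (35.6% to 40.6%) in 12 to 23. It thus fell with the number of libraries up to 23, while among the 375 exons with a value in all 24 it was 44.5% (39.6% to 49.6%).

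**Figure D1:**
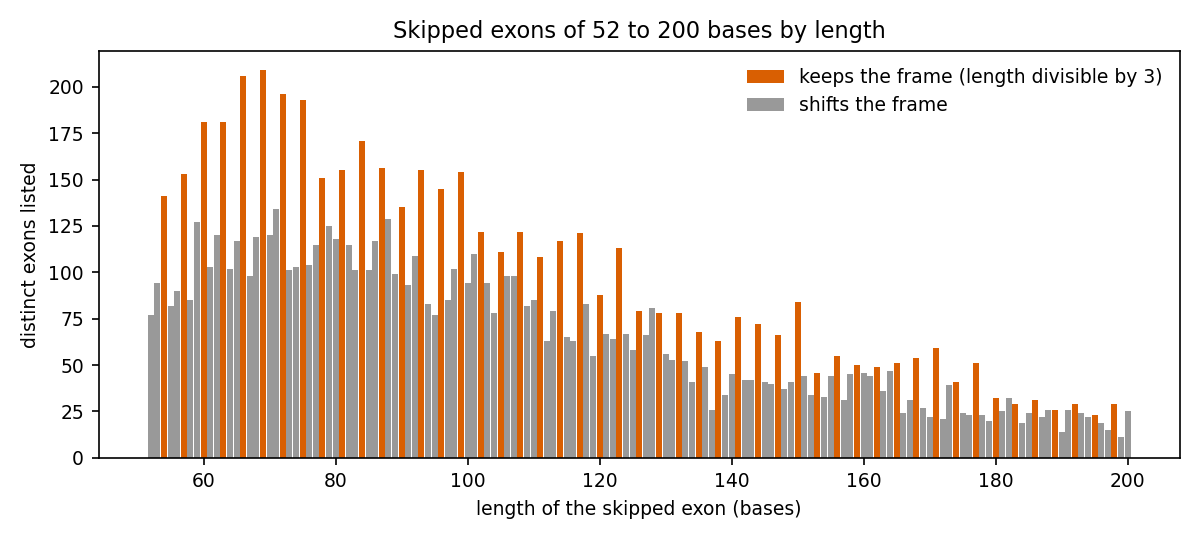
Number of distinct skipped exons (y axis) at each exon length in bases (x axis), with lengths divisible by 3 in orange and other lengths in grey. The orange bars stand above both neighbours at 46 of 49 lengths, with a mean of 100.06 exons per length.

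Skipping of most of these exons was rare. The mean ψ of an event over its libraries had a median of 96.7%. It was above 90% for 3938 events, 10% to 90% for 1229 and below 10% for 121. A value was found in 1 library for 2104 events, in at most 2 libraries for 2894, and in all 24 libraries for 168. The 168 exons seen in every library were of another kind, with a mean ψ above 90% for 46, 10% to 90% for 111 and below 10% for 11. A value requires a read of each isoform, and the part of that requirement in this contrast was not tested. The median ψ was alike in the length classes, at 96.8% up to 100 bases (2893 events), 96.7% above 100 and up to 150 bases (1697 events) and 96.4% above 150 bases (698 events).

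More frame-preserving exons were listed with a value at 33°C and 35°C than at 31°C in V5 leaves. At V5, a library held a value for 1143 ± 27.4 of them at 31°C, for 1506 ± 16.4 at 33°C, for 1598 ± 59.1 at 35°C and for 1116 ± 16.5 at 37°C (SD, n = 3 each). At V4 the numbers were 838 ± 48.1, 804 ± 14.5, 1004 ± 5.51 and 825 ± 66.9 from 31°C to 37°C. The libraries of V5 33°C (1492 to 1524), V5 35°C (1537 to 1655) and V4 35°C (998 to 1008) lay above all 31°C libraries of their stage (1113 to 1167 at V5 and 797 to 891 at V4), whereas the 37°C libraries overlapped with them. With 3 libraries against 3, an exact permutation test cannot give a two-sided p under 0.1, so none was made. The reads over all events moved less at V5, numbering 3129380 to 3220211 at 33°C and 3103796 to 3378578 at 35°C, against 3021024 to 3097289 at 31°C. At V4 35°C they numbered 2414853 to 2533748, against 1767872 to 2286472 at 31°C. The part of depth in these counts was not tested. Well-read exons were not listed in every library either. Of 173 exons with at least 10 reads of each isoform on average where listed, 14 had a value in at most 12 libraries. That average leaves out the libraries without a value, so the count does not tell whether skipping was absent there.

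Exons with at least 5 skipping reads were likewise most numerous at 33°C and 35°C in V5 leaves and at 35°C in V4 leaves. At V5 they numbered 342 ± 7.00, 485 ± 13.1, 483 ± 23.8 and 375 ± 4.93 from 31°C to 37°C. At V4 they numbered 247 ± 13.2, 249 ± 8.66, 319 ± 12.5 and 269 ± 17.8 at the 4 MDTs from low to high. Frame-shifting exons of 52 to 200 bases with at least 5 skipping reads averaged 525, 709, 703 and 529 per V5 library from 31°C to 37°C, and those with any value averaged 1725, 2192, 2323 and 1649, so the pattern was not confined to exons that keep the frame. At V5, 103 frame-preserving exons had a value in all 3 libraries at 35°C and in none at 31°C, and 19 the reverse. The corresponding numbers were 73 and 10 for 33°C and 14 and 23 for 37°C. At V4 they were 13 and 7 for 33°C, 31 and 6 for 35°C, and 25 and 21 for 37°C. Frame-shifting exons gave 75 and 13 for 33°C, 144 and 18 for 35°C, and 38 and 44 for 37°C at V5, and 12 and 20, 28 and 23, and 26 and 25 at V4.

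**Figure D2:**
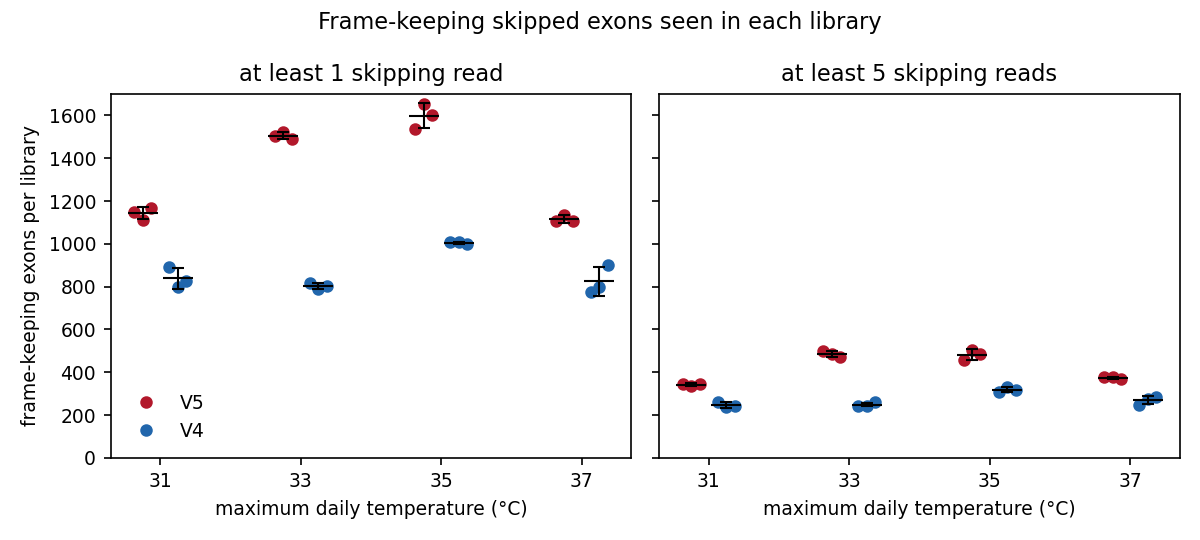
Number of frame-preserving exons with a ψ value per library (y axis) against MDT (x axis, °C) at V5 and V4, counted with at least 1 read of each isoform or with at least 5 skipping reads; dots are libraries and bars are the mean ± SD of 3. At V5 the 33°C and 35°C libraries (1492 to 1655) lie above those of 31°C and 37°C (1105 to 1167).

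Among the 168 exons with a value in every library, the median ψ of a library at V5 was 71.8% ± 0.881 under 31°C, 66.8% ± 1.31 under 33°C, 68.0% ± 2.20 under 35°C and 73.7% ± 1.99 under 37°C. At V4 it was 75.9% ± 1.35, 73.1% ± 2.54, 74.1% ± 2.09 and 77.1% ± 1.31 at the same MDTs. Both stages thus had their lowest mean at 33°C and their highest at 37°C. At V5 the 33°C libraries (65.7% to 68.3%) overlapped with the 35°C libraries (65.5% to 69.7%), and the 37°C libraries (71.9% to 75.9%) with the 31°C libraries (71.0% to 72.7%), while 33°C and 35°C lay below 31°C and 37°C without overlap. At V4 the differences were of about the spread between libraries. For a single exon of this set, the means of the 4 MDTs spanned a median of 8.60 percentage points at V5 and 8.74 points at V4, where the pooled SD within groups had a median of 4.23 points. The span was over 10 points for 73 exons at V5 and 74 at V4, and under 5 points for 52 and 55.

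Changes with temperature were tested in a quasi-binomial model of the reads of both isoforms, fitted on all AS events and adjusted over them (false discovery rate, FDR). An exon was called where the FDR did not exceed 1% and mean ψ differed by over 5 points, and this difference (Δψ) is always the higher MDT minus the lower, or V5 minus V4. Of the 5288 events, 805 had enough reads and values to be tested against 31°C at least once, and 276 could be tested in all 6 comparisons. Of the 4483 never tested, 4457 lacked a value in 2 libraries of 31°C and of a higher MDT at both stages, and 26 had too few reads. In all, 22 events in 18 genes were called against 31°C, 19 of them at V5, 10 at V4 and 7 at both. They made 37 calls. The comparisons of a stage share its 31°C libraries and are not independent. For frame-shifting exons of the same length range, 25 of 1288 tested events were called, and for AS events of all types 257 of 9729.

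The V5 35°C/31°C comparison had the most calls, chiefly toward skipping. Of 649 exons tested, 13 were called (2.00%), against 1.73% of all AS events tested. Of these, 11 were lower at 35°C and 2 higher, where 1.22% of all AS events were called lower and 0.51% higher. The 2 higher calls, both in Zm00001d022272, rest on the same skipping reads. Among the lower calls, so do the paired exons of Zm00001d029041 and those of Zm00001d011178, so the calls are not all separate observations. The share of exons called is near that of AS events at large. Across all tested exons, Δψ had a median of −1.2 points and was above 0 for 34.1%, while over all AS events the median was −0.31 and 44.4% were above 0. Frame-shifting exons had a median of −0.93 points with 36.5% above 0, and 12 of 994 called, none of them higher.

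The V5 33°C/31°C comparison had the same slant with few calls under the main setting. Of 648 exons, 2 were called (1 higher, 1 lower), against 0.454% of all AS events (0.147% higher, 0.307% lower), and edgeR called 1. The count depended on the setting. It was 12 at an FDR of 5%, and it also rose where a value in all 3 libraries was required. The median Δψ was −0.95 points, with 33.8% above 0, beside −0.15 points and 46.3% over all AS events. In the V5 37°C/31°C comparison the slant was absent, with a median of 0 points over 571 exons and 49.7% above 0. There, 9 exons were called (5 higher, 4 lower), which is 1.58% against 1.04% of all AS events (0.423% higher, 0.621% lower). The 5 higher calls include a pair of exons of Zm00001d022272 that rest on the same skipping reads, and a further exon of that gene. They are thus not all separate observations.

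Between the higher temperatures at V5, inclusion was greater at 37°C than at 35°C. In the V5 37°C/35°C comparison, 6 of 700 exons were called and all 6 were higher at 37°C, where 0.7% of all AS events were called in either direction, 0.503% higher and 0.196% lower. The median Δψ was 0.90 points with 65.9% above 0, beside 0.17 points and 53.6% over all AS events. Frame-shifting exons had a median of 1.1 points with 70.0% above 0, so this too was common to skipped exons. Without V5 35°C replicate 3, the number of calls was 3.

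At V4 the calls gathered at 37°C. In the V4 37°C/31°C comparison, 9 of 373 exons were called (2.41%), 7 higher and 2 lower, against 1.47% of all AS events (0.752% higher, 0.72% lower), and the count was 5 without V4 31°C replicate 2 or V4 37°C replicate 3. The V4 35°C/31°C comparison called 4 of 425 (2 higher, 2 lower), against 0.685% of all AS events (0.187% higher, 0.498% lower). Both higher calls there are exons of Zm00001d022272 and rest on the same skipping reads. That pair and a further exon of the gene are also among the 7 higher calls of V4 37°C/31°C. The higher calls at V4 are thus not all separate observations. The V4 33°C/31°C comparison called 0 of 373 with the quasi-binomial model and 0 with edgeR, with 34 at an unadjusted p under 0.05 and a background of 0.0658%. In the V4 37°C/35°C comparison both tools called 0 of 456, with 65 at an unadjusted p under 0.05 and a background of 0.0299%. There the median Δψ was 0.80 points with 62.3% above 0, beside 0.23 points and 54.4% over all AS events. Frame-shifting exons had a median of 0.30 points with 57.5% above 0. The slant between 37°C and 35°C thus had the same direction as at V5, without calls. The median Δψ at V4 was −0.06 points at 33°C, −0.23 at 35°C and 0.23 at 37°C, each against 31°C.

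**Figure D3:**
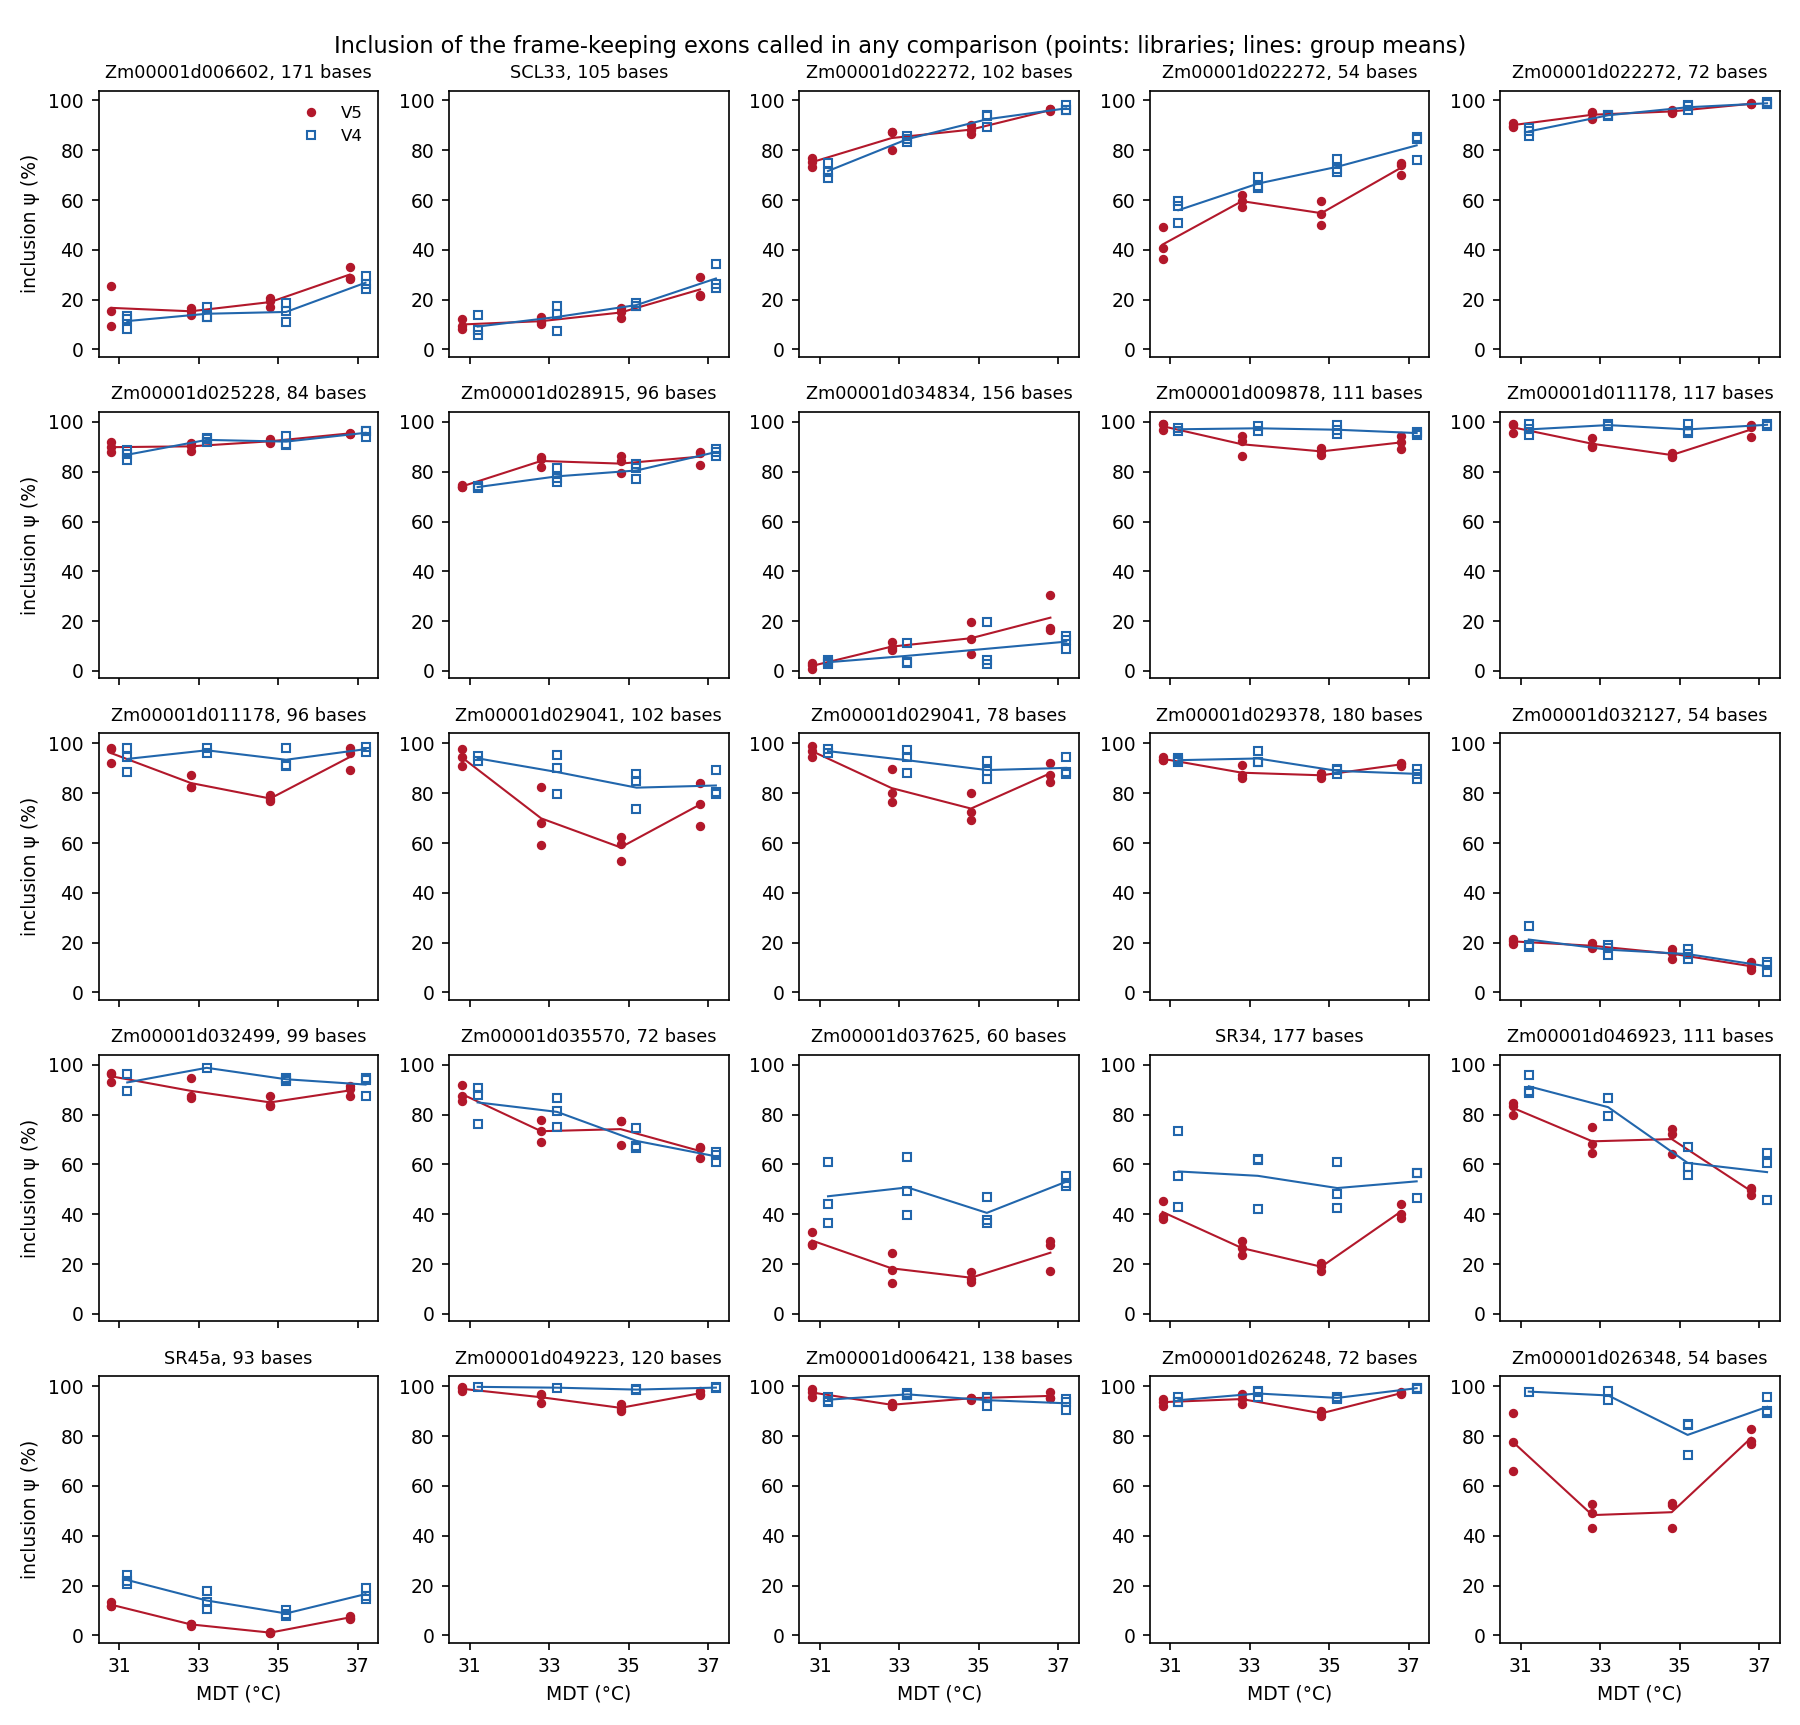
ψ in percent (y axis) by MDT in °C (x axis) for the 25 exons called in at least 1 comparison, 1 panel each; red filled circles are V5 libraries, blue open squares are V4 libraries, and lines join the means of the libraries with a value. The SR45a exon is lowest at 35°C at both stages, and the 3 exons of Zm00001d022272 are highest at 37°C at both.

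Among the splicing regulators, an exon of SR45a (Zm00001d047847), an SR-related protein that takes part in splice site choice, was skipped more at each MDT above 31°C in V5 leaves. It has 93 bases and lies at chr9:143198022-143198114 on the plus strand. The study reports that SR45a isoforms of lower MDT carry premature stop codons in the upstream reading frame. Those of higher MDT can, per the study, encode the full-length protein. Whether this exon holds such a stop codon was not looked up, so its length alone does not give the effect of skipping on the protein. At V5, ψ was 11.6%, 13.4% and 11.9% at 31°C, 3.8%, 4.7% and 4.7% at 33°C, 1.1%, 1.2% and 1.0% at 35°C, and 6.7%, 7.9% and 7.0% at 37°C. At V4 it was 21.8%, 24.4% and 20.5% at 31°C, 10.7%, 13.5% and 17.8% at 33°C, 10.1%, 8.5% and 7.8% at 35°C, and 19.1%, 16.0% and 14.6% at 37°C. In every comparison with 31°C of the same stage the libraries were lower without overlap, and at both stages the lowest level was at 35°C.

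At V5 the SR45a exon fell at 33°C by 7.90 points (SE 0.632, FDR 1.06e-04), at 35°C by 11.2 points (SE 0.56, FDR 2.79e-08) and at 37°C by 5.10 points (SE 0.663, FDR 0.00367). The 37°C call was lost without V5 31°C replicate 2, V5 37°C replicate 1 or V5 37°C replicate 3, with Δψ between −5.45 and −4.55 points over the libraries left out, and edgeR did not make it (FDR 0.0156). At V4 it fell at 35°C by 13.4 points (SE 1.33, FDR 1.74e-04). The V4 differences of −8.23 points at 33°C (FDR 0.157) and −5.67 points at 37°C (FDR 0.089) did not pass. Inclusion at V5 was 6.10 points higher at 37°C than at 35°C (SE 0.365, FDR 1.14e-07).

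Reads of both isoforms of the SR45a exon differed between MDTs, those of the skipping isoform by more. At V5, skipping reads averaged 348 per library at 31°C, 1102 per library at 33°C, 2770 per library at 35°C and 1004 per library at 37°C. Inclusion reads averaged 79.3, 81.7, 49.0 and 125 at the same MDTs. Skipping reads at V5 35°C were 7.96 times and inclusion reads 0.618 times those at 31°C, while reads over all AS events were 1.05 times those at 31°C. The level of the whole SR45a transcript was not measured here. The exon was also the 1 of 464 tested whose level at 31°C was called between stages, at 12.3% ± 0.964 in V5 leaves and 22.2% ± 1.99 in V4 leaves (Δψ −9.93 points, SE 1.27, FDR 0.00475), where 0.71% of all AS events were called. That call was lost without V4 31°C replicate 1, V4 31°C replicate 2 or V5 31°C replicate 1, with Δψ between −10.8 and −8.85 points, and edgeR called 0 exons there, with 59 at an unadjusted p under 0.05 in the quasi-binomial model.

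SR34 (Zm00001d040672), one of the SR proteins proper, had a 177-base exon at chr3:57180443-57180619 on the minus strand. At V5, ψ was 38.0%, 39.3% and 45.5% at 31°C, 26.5%, 23.7% and 29.1% at 33°C, 17.3%, 19.1% and 20.4% at 35°C, and 38.7%, 44.2% and 40.3% at 37°C. The level at 37°C thus overlapped with that at 31°C, with 35°C far below both. It fell at 35°C by 22 points relative to 31°C (SE 2.48, FDR 7.85e-04) and was 22.1 points higher at 37°C than at 35°C (SE 1.86, FDR 1.08e-04). Skipping reads averaged 203 at 35°C, against 33.7 at 31°C, and inclusion reads 103 at 35°C, against 50.7 at 31°C. At V4 the libraries spread widely, at 48.0%, 60.9% and 42.7% at 35°C, against 55.5%, 73.3% and 42.8% at 31°C (Δψ −6.67 points, SE 10.4, FDR 0.86).

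SCL33 (Zm00001d022243), an SC35-like SR protein, had a 105-base exon at chr7:173493102-173493206 on the plus strand whose inclusion was greatest at 37°C. At V4, ψ was 14%, 7.7% and 5.9% at 31°C, 17.5%, 14.1% and 7.5% at 33°C, 17.4%, 17.5% and 18.6% at 35°C, and 26.3%, 24.7% and 34.5% at 37°C. At V5 it was 12.4%, 9.6% and 8.1% at 31°C, 12.9%, 10.3% and 10.9% at 33°C, 16.8%, 14.9% and 12.8% at 35°C, and 21.9%, 29.1% and 21.3% at 37°C. The 37°C libraries lay above the 31°C libraries without overlap at both stages, but only the V4 difference passed. It was 19.3 points (SE 3.90, FDR 0.00371), and was lost without V4 31°C replicate 2, V4 31°C replicate 3 or V4 37°C replicate 3, with Δψ between 16.3 and 21.7 points. The V5 difference was 14.1 points (SE 2.80, FDR 0.016). The means ran up in order of MDT at both stages, unlike those of SR45a and SR34.

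Zm00001d022272 held 3 called exons on the plus strand of chromosome 7, and inclusion was higher at 37°C in all of them at both stages. The 102-base exon (chr7:174090833-174090934) had ψ of 77.0%, 73.3% and 75.4% at 31°C and 96.4%, 95.6% and 96.4% at 37°C in V5 leaves, with means of 84.9% at 33°C and 88.3% at 35°C. In V4 leaves it had 74.8%, 69.0% and 71.2% at 31°C and 96.3%, 96.0% and 98.2% at 37°C, with means of 84.5% at 33°C and 92.4% at 35°C. Levels thus followed the order of the 4 MDTs at both stages. Relative to 31°C, it was higher at V5 by 13.1 points at 35°C (SE 1.46, FDR 9.41e-04) and 20.9 points at 37°C (SE 1.10, FDR 7.72e-06), and at V4 by 20.8 points at 35°C (SE 2.34, FDR 1.74e-04) and 25.2 points at 37°C (SE 1.83, FDR 8.47e-06). These calls were kept under each library left out, and skipping reads moved more than inclusion reads, averaging 13.3 at 37°C against 79.7 at 31°C at V5.

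The 72-base exon of that gene (chr7:174090863-174090934) ends at the same base and had the same skipping reads in 24 of 24 libraries, so it does not count as a separate observation of skipping. Its V5 means were 90.1%, 94.3%, 95.6% and 98.7% from 31°C to 37°C, and its V4 means 87.6%, 94.1%, 97.3% and 98.9%. The 54-base exon (chr7:174089482-174089535) lies upstream in the gene and had the same skipping reads in 0 of 24 libraries. Its ψ at V5 was 49.3%, 40.6% and 36.5% at 31°C and 74.7%, 74.2% and 69.9% at 37°C, and at V4 59.5%, 57.7% and 50.6% at 31°C and 84.7%, 85.3% and 75.9% at 37°C. Relative to 31°C it was higher at 37°C by 30.8 points at V5 (SE 4.07, FDR 2.79e-04) and 26.0 points at V4 (SE 4.08, FDR 0.00257). The V4 call was lost without V4 31°C replicate 3, with Δψ between 23.4 and 29.1 points over the libraries left out.

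Zm00001d046923 went the other way, with a 111-base exon (chr9:110944786-110944896, plus strand) that was skipped more at 37°C. At V5 its ψ was 84.7%, 83.6% and 79.9% at 31°C and 49.6%, 50.4% and 47.9% at 37°C, with means of 69.3% at 33°C and 70.2% at 35°C. At V4 it was 95.9%, 88.7% and 89.6% at 31°C, 67.0%, 59.0% and 55.9% at 35°C, and 60.4%, 64.6% and 45.8% at 37°C, with a mean of 83% over the 2 libraries with a value at 33°C. It fell by 33.4 points at V5 37°C (SE 1.63, FDR 0.00117), by 30.8 points at V4 35°C (SE 4.01, FDR 0.00105) and by 34.5 points at V4 37°C (SE 6.13, FDR 0.00152). At 37°C inclusion reads were 0.492 times those at 31°C at V5, and skipping reads 2.41 times.

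Zm00001d032127 had a 54-base exon (chr1:213896837-213896890, plus strand) that was mostly skipped and was included still less at 37°C. Its ψ was 9.2%, 12.1% and 10.2% at V5 37°C, against 21.5%, 19.3% and 20.7% at V5 31°C, and 12.3%, 11.0% and 8.1% at V4 37°C, against 18.3%, 26.5% and 18.9% at V4 31°C. It fell by 10.0 points at V5 (SE 1.07, FDR 6.56e-04) and by 10.8 points at V4 (SE 2.92, FDR 0.00491). The V4 call was lost without V4 31°C replicate 2 or V4 37°C replicate 3, with Δψ between −12.2 and −8.13 points, and edgeR did not make it (FDR 0.0194).

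Zm00001d028915 had a 96-base exon (chr1:51123926-51124021, plus strand) between introns of 7463 and 2400 bases, far longer than the medians of the exons described. Its ψ at V5 was 74.5%, 73.7% and 74.0% at 31°C, 85.2%, 82.0% and 85.8% at 33°C and 82.7%, 87.7% and 87.8% at 37°C. At V4 it was 73.3%, 73.8% and 74.4% at 31°C and 89.2%, 88.1% and 86.4% at 37°C. Inclusion was higher than at 31°C by 12.0 points at V5 37°C (SE 1.70, FDR 0.00187) and 14.1 points at V4 37°C (SE 0.874, FDR 1.19e-04). The V5 33°C difference of 10.3 points (SE 1.20, FDR 0.00691) was lost without V5 31°C replicate 2 or 3 or V5 33°C replicate 1 or 3, with Δψ between 9.53 and 11.4 points, and with edgeR (FDR 0.0313).

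The remaining calls at 37°C were each made at 1 stage, although the difference at the other stage had the same sign. The 156-base exon of Zm00001d034834 (chr1:303357595-303357750, plus strand) was included in 30.5%, 16.3% and 17.4% at V5 37°C, against 2.2%, 0.7% and 3.2% at 31°C (Δψ 19.4 points, SE 4.62, FDR 0.0024, lost without V5 31°C replicate 2), and the V4 difference was 8.27 points (FDR 0.046). The 72-base exon of Zm00001d035570 (chr6:34068864-34068935, plus strand) had 66.7%, 66.9% and 62.6% at V5 37°C, against 85.3%, 87.5% and 92.1% at 31°C (Δψ −22.9 points, SE 2.44, FDR 0.00375), and the V4 difference was −21.7 points (FDR 0.043). That V5 call was lost without V5 31°C replicate 2, V5 31°C replicate 3 or V5 37°C replicate 3, with Δψ between −24.4 and −21.0 points.

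At V4 37°C, the 171-base exon of Zm00001d006602 (chr2:211856375-211856545, minus strand) had 26.4%, 24.3% and 29.7%, against 12.4%, 8.4% and 13.4% at 31°C (Δψ 15.4 points, SE 2.19, FDR 0.00999). This call lay at the threshold and was lost with any of the 6 libraries left out, with Δψ between 13.9 and 16.7 points, and the V5 difference was 13.4 points (FDR 0.11). The 84-base exon of Zm00001d025228 (chr10:110197452-110197535, plus strand) had a mean of 95.6% ± 1.42 at V4 37°C, against 86.8% ± 1.98 at 31°C (Δψ 8.80 points, SE 1.40, FDR 0.00643). It was kept in 1 of the 6 fits with a library left out, with Δψ between 7.73 and 9.68 points, and the V5 difference was 5.53 points (FDR 0.017).

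At V5 35°C, several exons that were almost always included at 31°C were skipped in part. Other exons called lower there had less inclusion at 31°C, with means of 12.3% for SR45a, 40.9% for SR34 and 29.4% for Zm00001d037625. Zm00001d029041, on the minus strand of chromosome 1, had the largest differences. Its 102-base exon (chr1:55781019-55781120) had ψ of 59.5%, 62.5% and 52.7% at 35°C, against 94.6%, 90.8% and 97.9% at 31°C (Δψ −36.2 points, SE 3.55, FDR 4.17e-04). Its 78-base exon (chr1:55781019-55781096) had 72.4%, 79.9% and 69.2% at 35°C, against 97.0%, 94.7% and 98.9% at 31°C (Δψ −23.0 points, SE 3.40, FDR 7.81e-04). The 2 exons share an end and had equal skipping reads in 23 of 23 libraries, so they report the same skipping, with a mean of 33.3 reads at 35°C against 3.00 at 31°C. At V4 35°C the mean of the 102-base exon was 82.2% ± 7.45, against 94.0% ± 1.41 in the 2 libraries with a value at 31°C.

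Zm00001d011178 likewise had a pair of exons with a common end and equal skipping reads in 22 of 22 libraries. Its 96-base exon (chr8:142041484-142041579, minus strand) had 77.5%, 79.3% and 76.8% at V5 35°C, against 98.0%, 92.3% and 97.9% at 31°C (Δψ −18.2 points, SE 2.03, FDR 0.00291). At V5 37°C the mean was 94.5% ± 4.59, back within the range of the 31°C libraries. At V4 the difference between 35°C and 31°C was −0.33 points. The 60-base exon of Zm00001d037625 (chr6:132208666-132208725, minus strand) had 16.8%, 12.8% and 14% at V5 35°C, against 32.9%, 27.9% and 27.5% at 31°C (Δψ −14.9 points, SE 2.10, FDR 0.00411). That call was lost without V5 31°C replicate 1, V5 35°C replicate 2 or V5 35°C replicate 3, with Δψ between −16.0 and −13.2 points, and with edgeR (FDR 0.0108).

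The other exons called lower at V5 35°C had smaller differences and are named because they complete the count. They are the 117-base exon of Zm00001d011178 (86.7% at 35°C against 97.8% at 31°C), the 99-base exon of Zm00001d032499 (84.9% against 95.4%), the 111-base exon of Zm00001d009878 (88.2% against 98.3%), the 120-base exon of Zm00001d049223 (91.4% against 99.0%) and the 180-base exon of Zm00001d029378 (87.2% against 93.8%). Zm00001d049223 has a zinc finger protein as its closest Arabidopsis relative in the study's gene table. In Zm00001d032499 the call was kept in 2 of 6 fits with a library left out (Δψ between −11.8 and −9.75 points), and in Zm00001d009878 in 1 of 6 (Δψ between −10.9 and −9.50 points). The V5 37°C means of these exons, 97.0%, 89.7%, 91.8%, 97.2% and 91.6% in the same order, lay between those of 35°C and 31°C in all 5.

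Besides the exons of SR45a and SR34, the 102-base and 54-base exons of Zm00001d022272 were higher at 37°C than at 35°C in V5 leaves, by 7.83 points (SE 1.02, FDR 0.00575) and 18.2 points (SE 3.16, FDR 0.00688). Each of these calls was kept in 3 of 6 fits with a library left out, with Δψ between 7.03 and 8.73 points and between 15.8 and 20.6 points, and edgeR did not make the second (FDR 0.016). Further exons were called only between 37°C and 35°C. The 54-base exon of Zm00001d026348 (chr10:143980695-143980748, minus strand) had 83%, 76.8% and 78.1% at 37°C, against 52.4%, 53.0% and 43.0% at 35°C (Δψ 29.8 points, SE 3.75, FDR 0.00612), with 66.0%, 89.2% and 77.8% at 31°C. That call was lost without V5 35°C replicate 1, V5 35°C replicate 3 or V5 37°C replicate 3, with Δψ between 26.6 and 31.6 points, and with edgeR (FDR 0.0107). The 72-base exon of Zm00001d026248 (chr10:141805926-141805997, minus strand) had a mean of 97.2% ± 0.404 at 37°C, against 89.2% ± 1.11 at 35°C (Δψ 8.07 points, SE 0.68, FDR 4.03e-04).

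In reads, a lower ψ at V5 35°C went with more skipping reads in each call, and in most calls also with fewer inclusion reads. Over the 11 calls, mean skipping reads were 1.67 to 11.1 times those at 31°C, with a median of 6.00. Mean inclusion reads were 0.618 to 2.03 times those at 31°C, with a median of 0.924, and they were fewer than at 31°C in 7 of 11. The skipping reads had moved more in 11 of 11. For the 7 exons called higher at V4 37°C, skipping reads were 0.114 to 1.47 times those at 31°C (median 0.521) and inclusion reads 1.45 to 6.10 times (median 1.75), beside 1.17 times for reads over all events. The skipping reads had moved more in 5 of those 7. Exons sharing skipping reads are counted separately here, and since the calls were made on these reads the folds are a description.

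**Figure D4:**
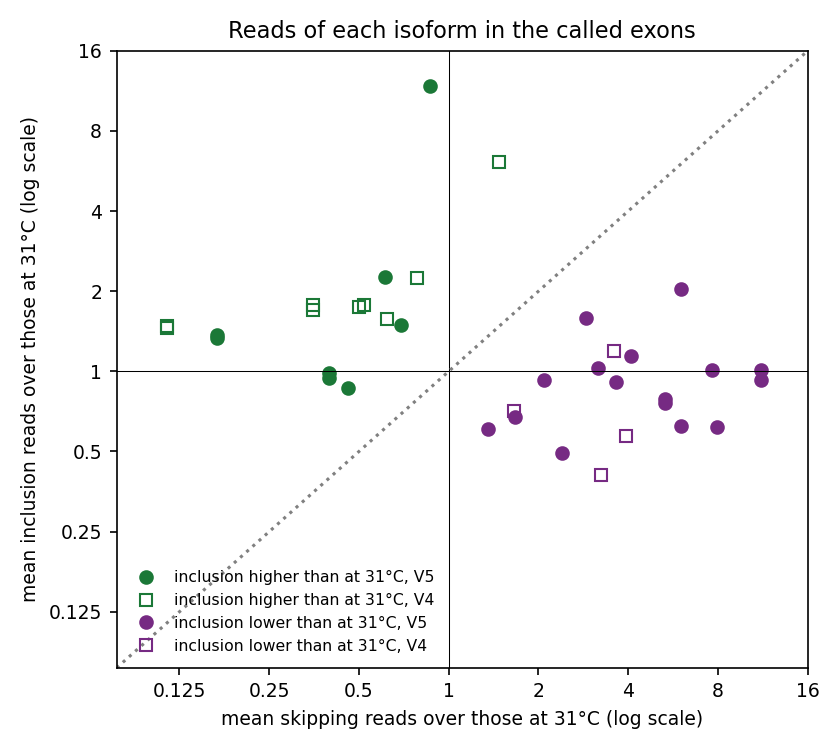
Fold of mean skipping reads (x axis) and of mean inclusion reads (y axis) over the 31°C group of the same stage for the 37 calls, both axes logarithmic; green marks calls of higher and purple of lower inclusion than at 31°C, filled circles are V5, open squares are V4, and the dotted line is an equal fold of both. The purple calls lie at 1.35 to 11.1 times on the x axis and 0.409 to 2.03 times on the y axis.

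The calls of a stage could be looked up in the other stage, which shares no library with it. Of the 9 exons called in V5 37°C/31°C, 9 were tested at V4, 9 had the same sign and 9 had an unadjusted p under 0.05. Over all AS events 79 were called, 75 tested, 69 of the same sign and 64 under that p. Of the 13 called in V5 35°C/31°C, 12 were tested at V4, 10 had the same sign and 6 an unadjusted p under 0.05, beside 136, 133, 108 and 73 of all AS events. Of the 9 called in V4 37°C/31°C, 9 had the same sign at V5 and 9 an unadjusted p under 0.05. Over all AS events 92 were called there, 90 tested, 85 of the same sign and 69 under that p. Of the 4 called in V4 35°C/31°C, 4 had the same sign and 4 were under that p, beside 44, 44, 38 and 31 of all AS events. The 72-base and 102-base exons of Zm00001d022272, which share their skipping reads, are counted separately in each of these comparisons. So are the pairs of Zm00001d029041 and Zm00001d011178 at V5 35°C.

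Over all exons tested at both stages, Δψ had the same sign in 236 of 336 (70.2%) for 37°C/31°C, beside 62.3% of 5547 AS events, with a Pearson r across exons of 0.65, beside 0.43. For 35°C/31°C the sign was the same in 221 of 367 (60.2%), beside 58.6% of 5624, with r of 0.32 beside 0.26. For 33°C/31°C it was the same in 55.5% of 339, beside 52.7%, with r of 0.18 beside 0.11. The likeness of the stages was thus greatest at 37°C for these exons and for AS events at large. Exons are not independent replicates, and these values are given without a test.

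**Figure D5:**
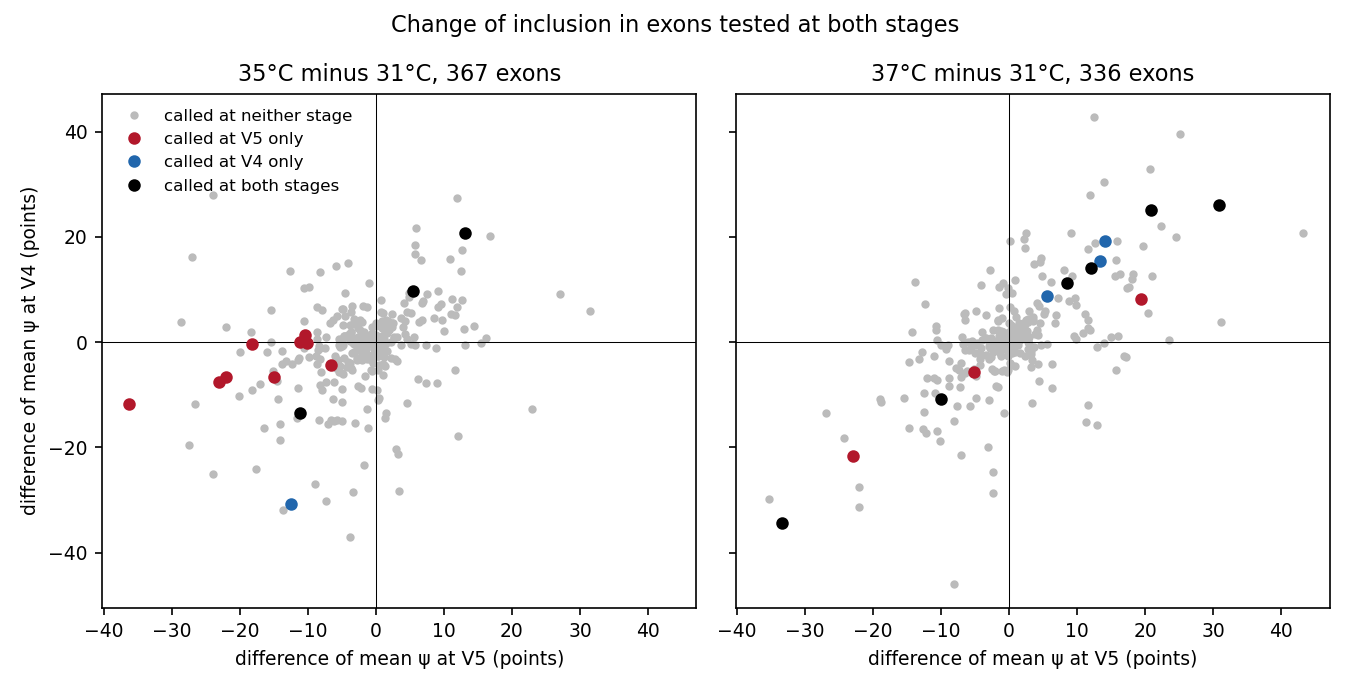
Δψ against 31°C in percentage points at V5 (x axis) and V4 (y axis) for each frame-preserving exon tested at both stages, at 35°C (367 exons) and 37°C (336 exons). At 37°C 70.2% of the exons lie in the quadrants of equal sign, and at 35°C 60.2%.

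The difference between the V5 change and the V4 change was called for 1 of 350 exons at 33°C/31°C (background 0.383%), 0 of 375 at 35°C/31°C (background 0.518%) and 0 of 342 at 37°C/31°C (background 0.194%). At an unadjusted p under 0.05 there were 37, 44 and 19, and edgeR called 1, 0 and 0. The SR45a exon at 35°C/31°C had an FDR of 1.02e-06 in this test but differed by 2.23 points, under the limit of 5 points. The test works on odds of inclusion, in which 1.10% against 12.3% at V5 is a larger change than 8.80% against 22.2% at V4, while in points the V4 change was the larger. The median difference of the changes was −0.66 points at 33°C, −0.47 at 35°C and −0.30 at 37°C.

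Frame-preserving exons that were called and those tested had unlike medians in some features. The 22 called had a median intron after the exon of 145 bases, against 375 bases for the 805 tested, and a median intron before it of 217.5 bases, against 343 bases. The quartiles overlapped widely, at 117 and 419.5 bases after the exon, against 115 and 830 bases. Before the exon they were 110.5 and 448 bases, against 109 and 1062 bases. The exons called had a median length of 100.5 bases, against 99 bases. They had more reads, with a median of 193 per library against 98.4, and 59.1% had a mean ψ of 10% to 90%, against 39.4%. Several of the 22 share a gene, and reads and ψ also bear on whether a change can be called. The part of these features in the calls was not tested.

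None of the 5 exons with the most reads moved by over 5 points, and all 5 lay near full inclusion or full skipping. They were the 90-base exon of Zm00001d023757 (166171 reads over 24 libraries, group means of 99.4% to 99.6%), the 69-base exon of Zm00001d048201 (142311 reads, 99.0% to 99.5%), the 174-base exon of Zm00001d024835 (127660 reads, 0.433% to 1.30%), the 144-base exon of Zm00001d018386 (109906 reads, 95.6% to 97.5%) and the 120-base exon of Zm00001d038894 (102049 reads, 99.0% to 99.7%). The exon of Zm00001d024835 had 1.4%, 1.1% and 1.4% at V4 37°C, against 0.6%, 0.8% and 0.8% at V4 31°C, which passed the FDR but not the limit of 5 points (Δψ 0.57 points, SE 0.12, FDR 0.00484). Among well-read exons with a value in every library and an intermediate mean ψ over them, the 144-base exon of Zm00001d016144 varied least. Its means of the 8 groups spanned 9.03 points around a mean of 64.7%. Next came the 171-base exon of Zm00001d031327 (11.7 points around 72.1%), the 75-base exon of Zm00001d006939 (11.9 points around 69.5%), and the 150-base and 165-base exons of Zm00001d001962, which share a start (12.5 points around 49.4% and 12.6 points around 66.2%).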

How the data were processed

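Reads of 24 maize leaf libraries were, per the study's methods, cleaned with SOAPnuke, mapped by HISAT2 (2.0.4 in the submitters' processing notes) to B73, and searched for AS events with rMATS. For each event and library, the authors deposited counts of inclusion and skipping reads and ψ as a fraction, in a table per stage, listing an event in a library only where both isoforms were read. Of the columns of single libraries, 67 were assigned to a library by name and 5 were left out. For replicates 2 and 3 of V4 31°C, inclusion counts had to be recovered, using skipping counts, ψ and the length ratio (793 and 818 values of the exons described), and ψ of V4 33°C was computed from counts. In 15989 of 15989 ES events that bound it, that ratio equalled 1 plus exon length over 149. Repeated heading lines (4 per table) were dropped.

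The quasi-binomial model was fitted in Python 3.11.15 (numpy 2.4.6, pandas 2.3.3, scipy 1.17.1) on all AS events that averaged 10 or more reads per library and had values for at least 2 of 3 libraries per group. An F test used residual deviance moderated across events by the method of limma (floor 1), with Benjamini-Hochberg adjustment over all events of a comparison. It was also run on simulated reads with the same extra spread in all events, and no result here rests on that run. Alternatives were edgeR 4.0.16 (R 4.3.3), other read minimums, values in all 3 libraries, an FDR of 5%, adjustment within ES events, shared skipping reads counted once, a replicate block and leaving out each library. Libraries were grouped by their labels. The labels number them as replicates, which the study calls biological replicates, and p-values measure the spread between these replicates. Intervals cover counting error only.

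Named exons were the 5 largest differences per comparison with 31°C (at least 20 reads per group, no overlap), those called at both stages or in several comparisons, those of 5 splicing regulators, the 5 with the most reads, the 5 with the smallest span at intermediate ψ, and those called between stages. The other called exons were added after their values were seen. The exons and lists were chosen with earlier results of these data known. Of the 3392 genes, 0 matched the RefSeq gene table and 79 had a description in the study's gene table, 9 of them tested and 2 called. No sequence was used, since no genome of the files' build was used here.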

Additional observations from a re-analysis of the deposited data

Results flagged for a closer look

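The 138-base exon of Zm00001d006421 (chr2:207462480-207462617, minus strand) changed differently at the stages between 31°C and 33°C, by the test of the difference itself. At V5 its ψ was 92.1%, 92.2% and 93.5% at 33°C, against 99.0%, 97.8% and 95.8% at 31°C. At V4 it was 97.3%, 96.4% and 96.7% at 33°C, against 95.9%, 94.1% and 93.9% at 31°C. The V5 change minus the V4 change was −7.08 points (SE 1.24, FDR 0.00923). It was lost in 10 of the 12 fits with a library left out, all but those without V4 31°C replicate 1 or V5 31°C replicate 3, with values between −7.95 and −6.35 points, and edgeR made the call (FDR 0.0083). Adjusted within ES events it was not called. Means at the other MDTs were 95.2% at V5 35°C and 94.5% at V4 35°C, and 96.2% at V5 37°C and 93.2% at V4 37°C.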

How the results depend on the processing

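For the 45 single calls, a minimum of 20 reads, edgeR, a replicate block and leaving out each library were tried: 28 were kept under each of these, 17 were lost with at least 1 library left out, 8 with edgeR and 2 with the replicate block (Zm00001d035570 in V5 37°C/31°C and Zm00001d006421), and 0 changed sign. Requiring a value in all 3 libraries, the numbers called were 23 in V5 35°C/31°C, 17 in V5 37°C/31°C, 14 in V5 33°C/31°C, 11 in V5 37°C/35°C, 2 in V4 33°C/31°C, 1 in V4 37°C/35°C and 2 in V5/V4 at 31°C. At an FDR of 5% they were 36, 27, 12, 14, 2, 1 and 3 in the same order, 22 in V4 37°C/31°C, and 2 and 1 for the difference of stages at 33°C/31°C and 35°C/31°C. With edgeR, 1 was called in V5 33°C/31°C and 0 in V5/V4 at 31°C. Adjusted within ES events, 1 was called in V5 33°C/31°C and 0 for the difference of stages at 33°C/31°C. With a replicate block there were 25 in V5 35°C/31°C, 20 in V5 37°C/35°C, 6 in V5 33°C/31°C, 3 in V4 33°C/31°C, 1 in V4 37°C/35°C and 0 for the difference of stages at 33°C/31°C. Same-numbered libraries deviated with correlations of −0.0417 to 0.0388, so the numbers do not pair the libraries. Leaving out 1 library gave 10 to 14 in V5 35°C/31°C, 6 (without V5 31°C replicate 2) to 11 in V5 37°C/31°C, 1 to 4 in V5 33°C/31°C, 3 to 7 in V5 37°C/35°C, 4 to 5 in V4 35°C/31°C, 5 to 9 in V4 37°C/31°C, 0 to 1 in V4 33°C/31°C, 0 in V4 37°C/35°C, 0 to 1 in V5/V4 at 31°C, and 0 to 1, 0 and 0 for the differences of stages. The cause of these shifts was not tested. Other read minimums and shared reads counted once kept each count within 1.5 times. The account is limited to libraries in which an exon was listed. A library without a listed value gave no measure of skipping, whether or not its reads were few.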

Other observations

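Other regulator exons could not be tested. The 87-base exon of the SPFcc1-like gene (Zm00001d048415) had a value in 1 library of each group. These values were 20.4%, 17.2%, 8.5% and 10.0% from 31°C to 37°C at V5 and 22.3%, 31.5%, 21.9% and 21.3% at V4. A 162-base exon of SCL33 (Zm00001d022243) had a value in 3 V5 libraries, each at 99.8%, and a 150-base exon of SR45a (Zm00001d047847) in 1 library, at 100%. Of the 173 frame-preserving exons with at least 10 reads of each isoform on average where listed, 134 had a value in all 24 libraries and 14 in at most 12. The average leaves out libraries without a value, so it does not tell why an exon was not listed there. The gene with the most such events was Zm00001d043667, with 12 events over 8 distinct exons, and 0 of them had enough values to be tested.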
